A study of Homo sapiens with 6 samples.

Results

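The miR-30 family was followed in small RNA sequencing of K562 cells, a human line from chronic myeloid leukaemia in blast crisis, in 2 forms. The resistant form had been grown in rising concentrations of azacitidine over several months, and the sensitive form is the line from which it was made. Azacitidine is a cytidine analogue that traps DNA methyltransferases and lowers DNA methylation. There were 3 libraries of each form, labelled as biological replicates, and both forms share the same RPMI medium with serum and antibiotics. Every library name carries the tag NT, which the labels do not explain. The labels do not say whether the drug was in the medium at harvest. They also name no separate selections of resistant cells, so p-values measure only the spread between these libraries, which may be technical. The family was taken by name from the table of read counts per mature miRNA: the 10 members are the 5p and 3p arms of miR-30a to miR-30e, out of 2656 miRNAs in the table. miR-30c is made from 2 hairpins with 1 shared 5p arm. The listed 3p arm is miR-30c-2-3p, and miR-30c-1-3p, the 3p arm of the other hairpin, is described beside the members, which makes 11 arms.

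A miRNA hairpin is cut by Drosha and Dicer into a short duplex, of which an Argonaute protein mostly keeps the guide strand while the passenger strand is degraded. The guide finds its target mRNAs mainly through its seed, the bases 2 to 8 from its 5′ end, and miRNAs with the same seed form a family. In the miR-30 family the guides are the 5p arms. Their known targets include BECN1, a gene of autophagy, SNAI1, a driver of the epithelial to mesenchymal transition, and PRDM1, a regulator of lymphocyte differentiation. miR-30a and miR-30e have also been reported to repress ABL1, the kinase part of the fusion that drives K562 growth.

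The hairpins lie in pairs. MIR30E (40754355 to 40754446) and MIR30C1 (40757284 to 40757372) lie on the plus strand of chromosome 1, in introns of NFYC, which encodes a subunit of the transcription factor NF-Y. MIR30C2 (71376960 to 71377031) and MIR30A (71403551 to 71403621) lie on the minus strand of chromosome 6, in introns of the long non-coding RNA LINC00472. Host genes are those of GENCODE 29, and positions are those of RefSeq on GRCh38.p14. RefSeq mature sequences matched 7 of the 11 arms by name. They are shown with the seed in capitals, because the guides shown share it while the passenger arms shown split into 2 seed groups:
miR-30a-5p: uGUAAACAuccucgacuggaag
miR-30e-5p: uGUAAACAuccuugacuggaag
miR-30c-5p: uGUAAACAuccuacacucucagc
miR-30a-3p: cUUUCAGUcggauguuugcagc
miR-30e-3p: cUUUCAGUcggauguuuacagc
miR-30c-1-3p: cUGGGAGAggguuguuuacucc
miR-30c-2-3p: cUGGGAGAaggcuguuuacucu

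The 3 printed guides carry the seed GUAAACA, which no mature sequence outside the family had among the 2370 in the RefSeq table. Counted from 1 at the 5′ end, with the base of miR-30a given first, miR-30a-5p and miR-30e-5p differ by C13U alone, and miR-30a-3p and miR-30e-3p by G18A alone. How reads that match near-identical members were assigned is not given in the sources used here. Counts of members that are this close are uncertain for that reason.

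Library totals were 8305961, 10644739 and 3291500 counts in resistant replicates 1 to 3 and 12563945, 10197963 and 5660055 counts in sensitive replicates 1 to 3. Resistant replicate 3 stood apart. Its log2 CPM, read counts scaled to a common library size, correlated with the other resistant libraries at r = 0.871 and above across miRNAs, against 0.98 and above among sensitive libraries. A single miRNA, miR-92a-3p, held 58.6% of its counts, against 20.2% and 17.5% in resistant replicates 1 and 2. Of the lists of cell type markers, the erythroid one (miR-486-5p, miR-451a and both arms of miR-144) summed to 10400 to 63500 CPM in resistant and 5210 to 7110 CPM in sensitive libraries. Most of that sum was miR-486-5p, at 13140, 9582 and 63305 CPM in resistant replicates 1 to 3 and 4740 to 6220 CPM in sensitive libraries. A negative log2 fold change was seen for 3 of the 4 erythroid markers, and for 1 of them without resistant replicate 3. The myeloid one (both arms of miR-223 and miR-142) summed to 1470 to 10800 CPM in resistant and 12000 to 13400 CPM in sensitive libraries. Its low end was resistant replicate 3, the lowest library for each myeloid marker. All 8 of these markers had counts in each library, so the labelled myeloblast line carried blood markers of both kinds. The epithelial markers, nearly all miR-200c-3p, summed to 305 to 438 CPM in resistant and 83.4 to 106 CPM in sensitive libraries. miR-126-3p, known from endothelium and blood progenitors, stood at 21683, 25164 and 9052 CPM in resistant replicates 1 to 3 and 33800 to 47700 CPM in sensitive libraries. The muscle markers stayed at or below 1.22 CPM in resistant and 3.57 CPM in sensitive libraries, and the liver marker miR-122-5p at or below 5.7 and 6.33 CPM in resistant and sensitive libraries. The part of these markers in the results on miR-30 was not tested.

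The guides took a similar share of the miRNA reads in both forms in all libraries but 1. The 5 guides together held 1.92%, 1.89% and 0.577% of the counts in resistant replicates 1 to 3 (exact 95% binomial intervals 1.91% to 1.93%, 1.88% to 1.89% and 0.569% to 0.586%), against 1.87%, 1.72% and 1.99% in sensitive replicates 1 to 3 (1.86% to 1.88%, 1.71% to 1.73% and 1.98% to 2.01%). Intervals cover only the counting error of reads in a single library, and the reads carry no molecular identifiers. Resistant replicates 1 and 2 fell within the range of the sensitive libraries, and resistant replicate 3 lay far under it. Scaled by trimmed mean of M values (TMM) factors, the guides summed to 16230, 15140 and 7464 CPM in resistant and to 19570, 17940 and 20880 CPM in sensitive replicates 1 to 3, so that on this scale every resistant library was lower. The TMM factors were 1.18, 1.25 and 0.774 in resistant against 0.955 to 0.960 in sensitive libraries. The shares above do not use these factors. In such bulk libraries fewer cells of a type and less RNA per cell cannot be told apart.

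All 5 guides had a negative log2 fold change and none passed the test; with library totals and without resistant replicate 3, 4 of them were above 0. The comparison used edgeR's quasi-likelihood test on the counts of all 768 miRNAs with enough counts, with a Benjamini-Hochberg adjusted p under 0.05 as the threshold. Of the 10 arms that could be tested (9 of the 10 members and miR-30c-1-3p), 0 were called in either direction, against a background of 4.17% called (2.08% in each direction). An unadjusted p under 0.05 was reached by 0 of the 10 arms and by 205 of all 768. DESeq2, with a background of 19.4%, and limma-voom, with 40 of 768 miRNAs called, also called 0 arms. The guides had a median log2 fold change of -0.65, against -0.11 over all tested miRNAs. On the TMM scale, 6 of the 10 arms had CPM ranges that did not overlap between the groups (5 lower and 1 higher in resistant cells). The same held for 41.8% of all tested miRNAs (22.9% lower and 18.9% higher).

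Ordered by reads in sensitive cells, the arms fell into 3 steps. miR-30d-5p came first, then miR-30e-5p, miR-30c-5p, miR-30b-5p and the passenger miR-30e-3p, and the remaining passengers with miR-30a-5p followed at under 110 CPM in each library of both forms. Within the second step, miR-30e-5p and miR-30c-5p could not be ordered beyond their spread, nor could miR-30b-5p and miR-30e-3p. Within the third step, the range of miR-30b-3p in sensitive cells overlapped those of miR-30c-1-3p and miR-30a-5p. Since library kits ligate miRNAs with unequal efficiency, this is an order of reads, not of molecules.

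**Figure D1:**
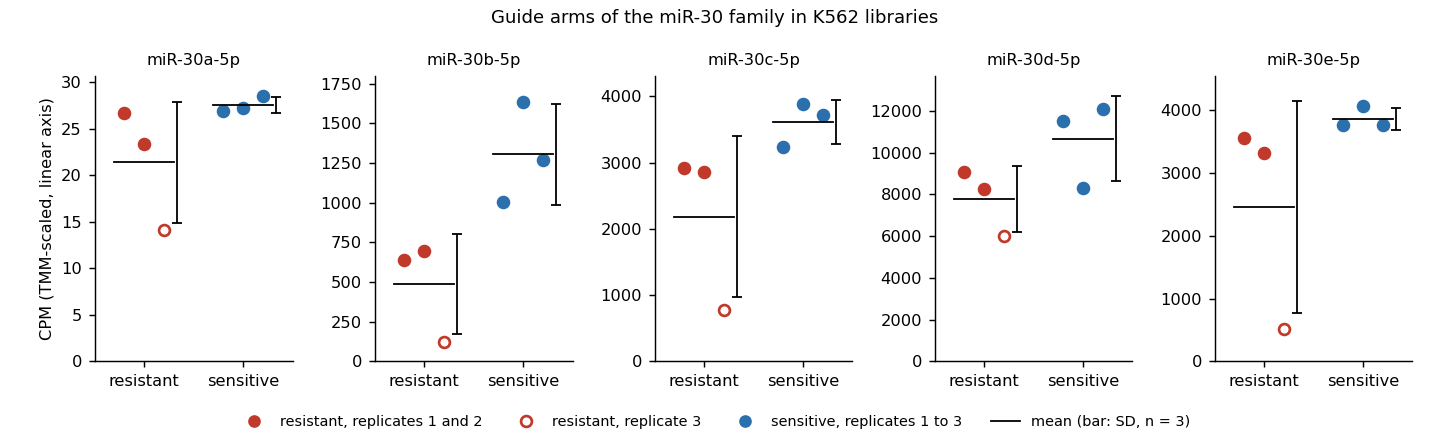
TMM-scaled CPM of the 5 guide arms in each library, on linear axes that start at 0. Points are libraries, horizontal lines are means and bars are SD (n = 3). Resistant replicate 3 (open circle) is the lowest library for each guide.

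hsa-miR-30d-5p was the most abundant member. It had 9084, 8248 and 6025 CPM in resistant replicates 1 to 3, against 11530, 8327 and 12100 CPM in sensitive replicates 1 to 3. The lowest sensitive library lay within the range of the resistant ones, so the groups overlapped. The log2 fold change was -0.45 (SE 0.38, edgeR adjusted p = 0.47; approximate 95% interval -1.33 to 0.42).

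hsa-miR-30e-5p and hsa-miR-30c-5p, the guides of the NFYC hairpins, came next and stood at similar levels. miR-30e-5p had 3556, 3312 and 523 CPM in resistant against 3759, 4061 and 3766 CPM in sensitive replicates 1 to 3. miR-30c-5p had 2919, 2864 and 777 CPM in resistant against 3241, 3882 and 3713 CPM in sensitive replicates 1 to 3. On the TMM scale every resistant library was lower than every sensitive one for both guides. The gap was small for resistant replicates 1 and 2 and wide for replicate 3. As shares of counts the groups overlapped. miR-30e-5p held 0.4206%, 0.4124% and 0.04044% in resistant replicates 1 to 3, against 0.3595% to 0.3899% in sensitive libraries. miR-30c-5p held 0.3453%, 0.3566% and 0.06012%, against 0.3099% to 0.3727%. Neither guide passed the test. The log2 fold change of miR-30e-5p was -0.65 (SE 0.65) at an edgeR adjusted p of 0.543, and that of miR-30c-5p was -0.72 (SE 0.53) at an edgeR adjusted p of 0.401. In sensitive cells their means of 3860 ± 172 and 3610 ± 332 CPM (SD, n = 3 each) lay within their spread of each other.

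hsa-miR-30b-5p comes from MIR30B, which lies with MIR30D on the minus strand of chromosome 8, where GENCODE 29 lists no other gene over them. It showed the widest gap among the guides. miR-30b-5p had 642, 696 and 125 CPM in resistant replicates 1 to 3 (6305, 9222 and 319 counts), against 1005, 1638 and 1271 CPM in sensitive replicates 1 to 3 (12077, 16038 and 6867 counts). All resistant libraries lay under all sensitive ones. The means were 488 ± 315 CPM in resistant and 1300 ± 318 CPM in sensitive cells (SD, n = 3 each), which was 2.67-fold lower in resistant cells and did not pass (log2 fold change -1.42, SE 0.63, edgeR adjusted p = 0.195; approximate 95% interval -2.89 to 0.05). Over the alternatives that had been listed, its adjusted p ran from 0.0136 to 0.44.

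hsa-miR-30a-5p, the guide from chromosome 6, was scarce. It had 26.7, 23.3 and 14.1 CPM in resistant replicates 1 to 3 (262, 309 and 36 counts), against 26.9, 27.2 and 28.5 CPM in sensitive replicates 1 to 3 (323, 266 and 154 counts). Resistant replicate 1 nearly reached the lowest sensitive library, and the log2 fold change was -0.36 (SE 0.40, edgeR adjusted p = 0.59). As shares of counts, miR-30a-5p held 0.00315%, 0.00290% and 0.00109% in resistant replicates 1 to 3, against 0.00257% to 0.00272% in sensitive libraries. Its counts were 0.704% to 2.7% of those of miR-30e-5p in resistant and 0.669% to 0.757% in sensitive libraries, and miR-30a-3p counts were 0.892% to 1.57% of those of miR-30e-3p in resistant and 1.24% to 1.39% in sensitive libraries. Both pairs differ by a single base, and what part of the miR-30a counts came from miR-30e molecules was not tested.

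Leaving out resistant replicate 3 brought most guides close to the sensitive level and left 1 call. In that comparison of 2 resistant with 3 sensitive libraries, 28.1% of 822 tested miRNAs were called (14.4% of those tested lower and 13.7% higher). Among the 10 tested arms, 1 was called lower, miR-30b-5p (log2 fold change -0.91, SE 0.24, edgeR adjusted p = 0.0136; approximate 95% interval -1.43 to -0.39), and 0 were called higher. The count of 1 in 10 arms lay within that background. The TMM-scaled CPM did not overlap for 5 of the 10 arms, against 53% of all tested miRNAs. The other guides had log2 fold changes of -0.27 for miR-30c-5p, -0.25 for miR-30d-5p, -0.12 for miR-30e-5p and -0.09 for miR-30a-5p (edgeR adjusted p = 0.328 to 0.846), with approximate 95% intervals that reached at most -0.69 on the low and 0.45 on the high side.

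In the same 5 libraries the call of miR-30b-5p was also made by DESeq2 (-0.91, adjusted p = 0.00417; 14.7% of all called lower) and limma-voom (-0.88, adjusted p = 0.0132; 13.9% called lower), alternatives chosen after seeing the data. Scaling by library totals gave -0.62 (edgeR adjusted p = 0.0682) and shifted the median of all miRNAs to 0.33, so that miR-30b-5p lay 0.95 under that median. The 4 other guides then had log2 fold changes of 0.02 to 0.20, which is -0.12 to -0.31 relative to that median. Without a further resistant library the call was lost while the log2 fold change was of similar size, at -0.86 without replicate 1 (edgeR adjusted p = 0.168) and -0.99 without replicate 2 (edgeR adjusted p = 0.0965). Each leaves 1 resistant library, so that the spread comes from the sensitive libraries and the lone library is assumed to vary like them. Without any 1 sensitive library the call was kept (edgeR adjusted p = 0.00114 to 0.0272).

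**Figure D2:**
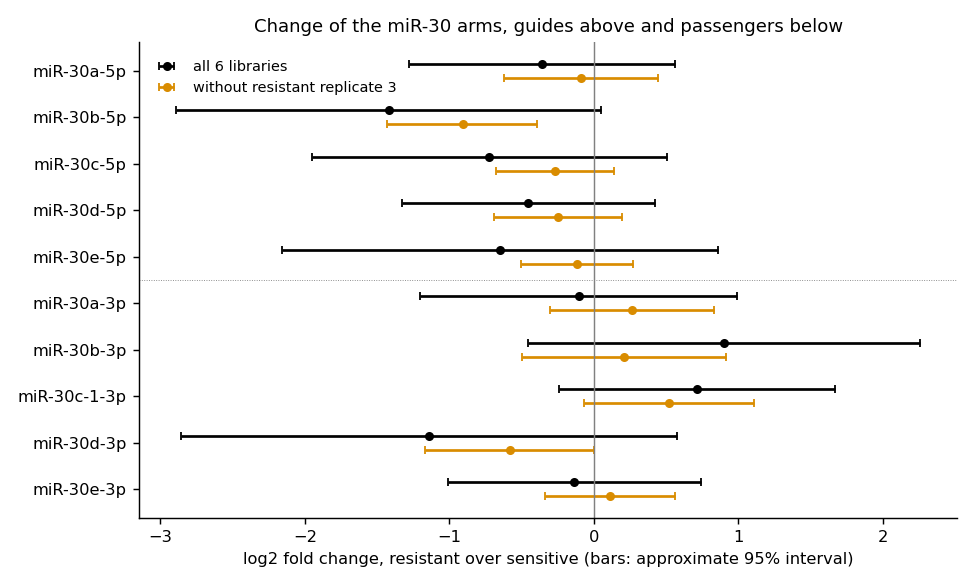
Log2 fold changes of the 10 tested arms, resistant over sensitive, with all 6 libraries (black) and without resistant replicate 3 (orange). Bars are approximate 95% intervals. The interval of miR-30b-5p without resistant replicate 3 (-1.43 to -0.39) is the one that clearly leaves 0.

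Ratios within a library are free of the scaling. Counts of miR-30b-5p were 7.06%, 8.44% and 2.08% of those of its chromosome 8 neighbour miR-30d-5p in resistant replicates 1 to 3, against 8.72%, 19.7% and 10.5% in sensitive replicates 1 to 3. All resistant libraries were lower, although resistant replicate 2 and sensitive replicate 1 lay close together. The mean log2 ratio was -4.33 in resistant and -3.04 in sensitive libraries, with a two-sided exact permutation p of 0.1, the smallest that 3 against 3 libraries allow (0.2 adjusted over the 2 pairs compared). Counts of miR-30e-5p were 122%, 116% and 67.3% of those of its chromosome 1 neighbour miR-30c-5p in resistant and 116%, 105% and 101% in sensitive replicates 1 to 3, which overlapped (exact permutation p = 0.9, two-sided).

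Apart from miR-30b-5p, the make-up of the guide pool in resistant replicates 1 and 2 lay within or near the range of the sensitive libraries, and that of resistant replicate 3 outside it. miR-30d-5p made up 56.0%, 54.5% and 80.7% of the guide counts in resistant replicates 1 to 3, against 58.9%, 46.4% and 58.0% in sensitive replicates 1 to 3. miR-30e-5p made up 21.9%, 21.9% and 7.01% in resistant and 19.2%, 22.6% and 18.0% in sensitive replicates 1 to 3. miR-30c-5p made up 18.0%, 18.9% and 10.4% in resistant and 16.6%, 21.6% and 17.8% in sensitive replicates 1 to 3. In resistant replicate 3 the pool was thus richer in miR-30d-5p and poorer in the other abundant guides. miR-30b-5p made up 3.96%, 4.60% and 1.68% in resistant and 5.14%, 9.13% and 6.09% in sensitive replicates 1 to 3, so that every resistant library lay under the sensitive range. miR-30a-5p stayed under 0.2% in each library.

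The passenger arms did not move in 1 direction. Their median log2 fold change was -0.11 over the 5 that could be tested, 3 of them negative (1 with library totals, where miR-30a-3p and miR-30e-3p were above 0), and 0 were called.

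**Figure D3:**
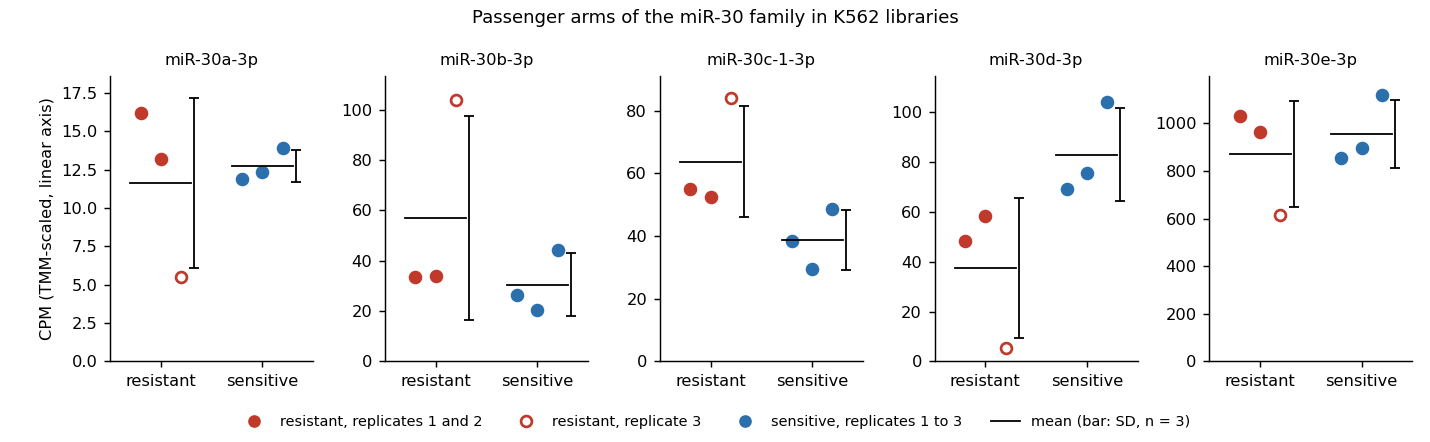
TMM-scaled CPM of the 5 tested passenger arms in each library, on linear axes that start at 0. Points are libraries, horizontal lines are means and bars are SD (n = 3). Resistant replicate 3 (open circle) is the highest library for miR-30b-3p and miR-30c-1-3p and the lowest for the other passenger arms.

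hsa-miR-30e-3p was the most abundant passenger arm, at 1030, 964 and 617 CPM in resistant and 854, 895 and 1117 CPM in sensitive replicates 1 to 3. The groups overlapped (log2 fold change -0.13, SE 0.38, edgeR adjusted p = 0.818). In sensitive cells its range also overlapped that of the guide miR-30b-5p. hsa-miR-30a-3p was the least abundant tested arm, at 16.2, 13.2 and 5.5 CPM in resistant and 11.9, 12.4 and 13.9 CPM in sensitive replicates 1 to 3 (edgeR adjusted p = 0.885).

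Both passenger arms from chromosome 8 had values of opposite sign. hsa-miR-30d-3p had 48.1, 58.3 and 5.5 CPM in resistant replicates 1 to 3 (473, 772 and 14 counts), against 69.1, 75.6 and 104 CPM in sensitive replicates 1 to 3. On the TMM scale all resistant libraries were lower, while as a share of counts resistant replicate 2 (0.00725%) exceeded sensitive replicate 1 (0.00661%). The log2 fold change of -1.14 did not pass (SE 0.74, edgeR adjusted p = 0.345, and -0.58 with an adjusted p of 0.131 without resistant replicate 3). hsa-miR-30b-3p had 33.5, 34.0 and 104 CPM in resistant replicates 1 to 3 (329, 450 and 264 counts), against 26.6, 20.3 and 44.4 CPM in sensitive replicates 1 to 3. Sensitive replicate 3 exceeded resistant replicates 1 and 2, so the groups overlapped (log2 fold change 0.90 with an SE of 0.59, edgeR adjusted p = 0.345, and 0.21 with an adjusted p of 0.694 without resistant replicate 3).

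The passenger arms of both miR-30c hairpins, which differ by 3 bases (G9A, U12C and C22U, from miR-30c-1-3p to miR-30c-2-3p), stood far apart in level. hsa-miR-30c-2-3p, from chromosome 6, had 1 count in resistant replicate 1, 1 count in sensitive replicate 1 and 0 in the other 4 libraries, where 3 counts would correspond to 0.226 and 1.18 CPM in resistant replicates 2 and 3 and to 0.306 and 0.555 CPM in sensitive replicates 2 and 3. It was too low to test. miR-30c-1-3p, from the NFYC intron, had 540, 694 and 214 counts in resistant and 461, 289 and 263 counts in sensitive replicates 1 to 3. On the CPM scale that was 55.0, 52.4 and 84.1 in resistant and 38.4, 29.5 and 48.7 in sensitive replicates 1 to 3. Every resistant library was higher, and the log2 fold change of 0.71 did not pass (SE 0.41, edgeR adjusted p = 0.284, and 0.52 with an adjusted p of 0.176 without resistant replicate 3).

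**Figure D4:**
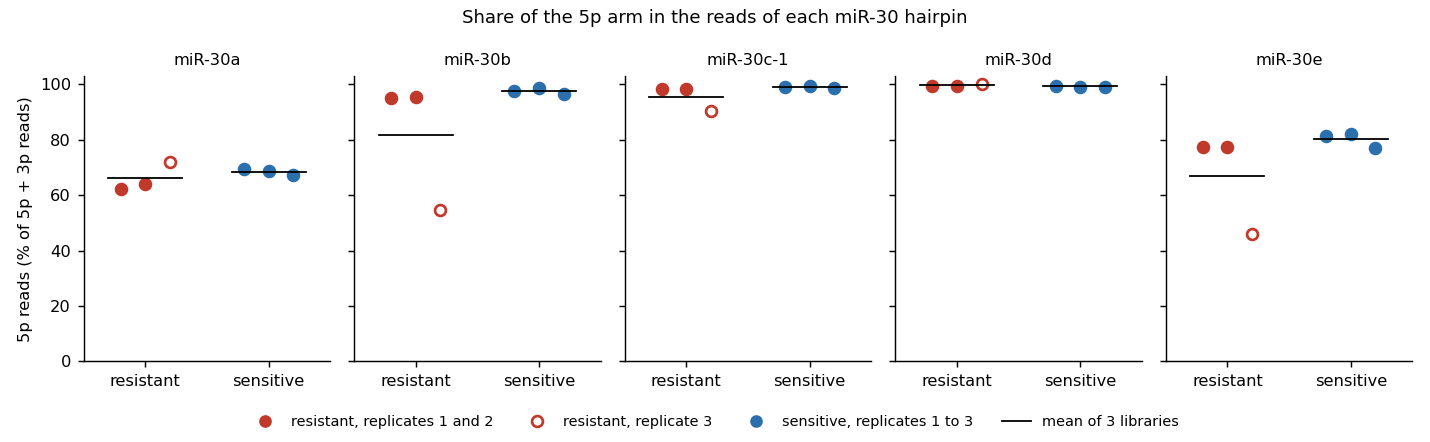
Reads of the 5p arm as a percentage of the 5p and 3p reads of each hairpin in each library. Points are libraries and lines are means of 3. Resistant replicate 3 (open circle) lies at 54.7% for miR-30b and 45.9% for miR-30e, where the other libraries lie between 77.1% and 98.8%.

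The 5p arm held most reads of each hairpin, with the exception of miR-30e in resistant replicate 3. For miR-30d it held 99.5%, 99.3% and 99.9% of the hairpin's reads in resistant and 99.4%, 99.1% and 99.2% in sensitive replicates 1 to 3. Among 222 hairpins with both arms above the count minimum, 15 had a higher mean 5p to 3p ratio than miR-30d in sensitive libraries, 20 than miR-30c-1, 29 than miR-30b, 76 than miR-30e and 91 than miR-30a. In sensitive libraries miR-30a was the least one-sided of the 5 hairpins. It had 62.2%, 63.8% and 72.0% of reads from the 5p arm in resistant and 69.3%, 68.7% and 67.3% in sensitive replicates 1 to 3. For miR-30c-1 the shared miR-30c-5p reads were set against its own 3p arm.

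No change of arm use passed the test. Log2 ratios of the 5p to the 3p counts (pseudocount 0.5) were compared with limma over the 222 hairpins, of which 1.80% were called. Of the 5 miR-30 hairpins 0 were called. An unadjusted p under 0.05 was reached by 1 of them and by 20 of all 222. This was miR-30b, with 19.2, 20.5 and 1.21 guide reads per passenger read in resistant replicates 1 to 3, against 37.9, 80.6 and 28.6 in sensitive replicates 1 to 3. Its ratio was lower in every resistant library, and the mean log2 ratio was 2.96 ± 2.33 in resistant and 5.47 ± 0.77 in sensitive libraries (SD, n = 3 each; limma adjusted p = 0.384; 95% interval of the difference -4.98 to -0.03).

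The miR-30c-1 ratio was likewise lower in every resistant library. It was 53.1, 54.7 and 9.25 guide reads per passenger read in resistant replicates 1 to 3, against 84.5, 132 and 76.3 in sensitive replicates 1 to 3 (difference of the mean log2 ratio -1.66, SE 0.72, limma adjusted p = 0.384). For miR-30e the ratio was 3.45, 3.44 and 0.848 in resistant and 4.40, 4.54 and 3.37 in sensitive replicates 1 to 3, and the groups overlapped (-0.91, SE 0.58, limma adjusted p = 0.42). miR-30d had a difference of the other sign, with 189, 142 and 1100 in resistant and 167, 110 and 116 in sensitive replicates 1 to 3 (1.24, SE 0.75, limma adjusted p = 0.417).

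Without resistant replicate 3 the difference of the log2 ratio was -1.16 for miR-30b and -0.81 for miR-30c-1 (limma adjusted p = 0.303 and 0.323). The 95% intervals of these differences were -2.09 to -0.23 and -1.53 to -0.09. Of all hairpins, 2.12% were called in this comparison, and 0 of the 5 miR-30 hairpins. For miR-30a, miR-30d and miR-30e the differences were -0.34, 0.34 and -0.24 (limma adjusted p = 0.628 for each).

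Because resistant replicate 3 moved most values, its deviation from resistant replicates 1 and 2 was described for each arm. On the log2 CPM scale it was -2.71 for miR-30e-5p, -2.41 for miR-30b-5p, -1.89 for miR-30c-5p, -0.80 for miR-30a-5p and -0.52 for miR-30d-5p. Among the passenger arms it was -3.16 for miR-30d-3p, -1.33 for miR-30a-3p, -0.69 for miR-30e-3p, 0.64 for miR-30c-1-3p and 1.61 for miR-30b-3p, so the arms of the miR-30b and miR-30d hairpins deviated in opposite orders. The median over all 768 tested miRNAs was -0.31. The deviation was higher at higher GC content of the mature sequence over the 677 tested miRNAs with a RefSeq sequence (Spearman's rho 0.714, a description across miRNAs of the same libraries). The printed members followed that order in part. miR-30e-5p has 40.9% GC, miR-30c-5p 43.5%, miR-30a-5p and miR-30e-3p 45.5%, miR-30a-3p 50% and miR-30c-1-3p 54.5%, against a median of 47.8% over those tested.

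**Figure D5:**
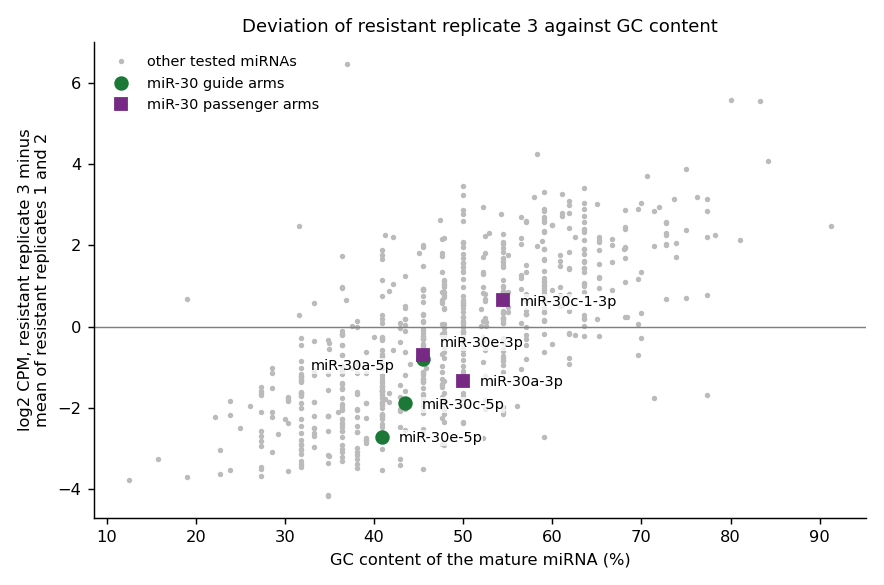
Deviation of resistant replicate 3 from the mean of resistant replicates 1 and 2 (log2 CPM) against the GC content of the mature miRNA in percent. Grey points are other tested miRNAs, green circles miR-30 guides and purple squares miR-30 passenger arms with a RefSeq sequence. Deviations are higher at higher GC content (Spearman's rho 0.714), and miR-30e-5p at 40.9% GC lies lowest among the members shown.

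With a correction for GC content, made for the arms with a RefSeq sequence, 0 of 6 tested arms were called in all 6 libraries, where 10.8% of the miRNAs were called, and 0 without resistant replicate 3, where 26.1% were called. miR-30b-5p was not among these 6. miR-30e-5p then had log2 fold changes of -0.35 in all 6 libraries and 0.06 without resistant replicate 3, and miR-30c-5p of -0.47 and -0.14. miR-30c-1-3p had 0.27 and 0.35. In all 6 libraries, the corrected difference of the miR-30c-1 log2 arm ratio was -0.85, against -1.66 without the correction.

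The guides of 3 other widely expressed families made from several hairpins were set beside miR-30 by count and median. These lists, like the members, were chosen with earlier results of these data known. The miR-26 guides, led by miR-26a-5p at 25400 ± 11200 CPM in resistant and 33000 ± 1290 CPM in sensitive cells (SD, n = 3 each), had a median log2 fold change of -0.28 over 2 members, and 0 were called. The miR-29 guides, which target de novo DNA methyltransferases, had a median of -0.43 over 3 members, and 0 were called. Their most abundant member, miR-29a-3p, stood at 215 ± 126 CPM in resistant and 591 ± 79.7 CPM in sensitive cells. Of the 9 let-7 guides 4 were called higher, against a background of 2.08%, and 0 lower, with a median of 1.16, and let-7a-5p stood at 7260 ± 3030 CPM in resistant and 1260 ± 112 CPM in sensitive cells. The medians without resistant replicate 3 were 0.08, 0.09 and 1.30 for the miR-26, miR-29 and let-7 guides, against -0.25 for the miR-30 guides and 0.04 over all tested miRNAs. In that comparison 1 of the 3 miR-29 guides was called lower, miR-29a-3p (log2 fold change -0.99, edgeR adjusted p = 0.00728), 8 of the 9 let-7 guides were called higher and 0 miR-26 guides were called. The background without resistant replicate 3 was far higher, with 14.4% of miRNAs called lower and 13.7% called higher. The difference between families was not tested.

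The miRNAs outside the family with the pattern most like that of the summed guides were found by Pearson's r of log2 CPM over the 6 libraries, among 240 miRNAs with at least 100 CPM on average. They were miR-409-5p (r = 0.991), miR-127-5p (0.990), miR-340-5p (0.989), miR-146b-5p (0.988) and miR-136-5p (0.984), all with resistant replicate 3 as the lowest library. miR-409-5p, the closest, had 567, 592 and 228 CPM in resistant and 889, 714 and 954 CPM in sensitive replicates 1 to 3. Since 85 of the 240 had an r of at least 0.9, such likeness was common, and these points share their libraries and scaling. Among the guides themselves, r over the 6 libraries was 0.991 for miR-30c-5p with miR-30e-5p, 0.980 for miR-30b-5p with miR-30c-5p, and 0.765 for miR-30b-5p with its neighbour miR-30d-5p. Without resistant replicate 3 these were 0.899, 0.981 and 0.231 over 5 libraries.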

How the data were processed

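Small RNA libraries of 3 resistant and 3 sensitive K562 samples were prepared with the NEBNext small RNA kit, per the labels' protocols. The authors deposited read counts per mature miRNA. The submitters' processing notes name GRCh38. Not given in the sources used here are the aligner, the counter and the handling of reads that match several miRNAs. Groups follow the sample titles. The members and comparison lists were chosen with earlier results of these data known. Named miRNAs are all members, miR-30c-1-3p, the 5 miRNAs most like the summed guides and the most abundant member of each comparison list.

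miRNAs that passed edgeR's filterByExpr (minimum count 10, total 15) were scaled with TMM and tested with edgeR's quasi-likelihood test (edgeR 4.0.16, R 4.3.3) with Benjamini-Hochberg adjustment. SE and intervals of fold changes come from the F statistic and are approximate. CPM were computed from the deposited counts after TMM scaling over 6 libraries. Arm ratios were tested with limma 3.58.1 with a variance trend. Alternatives were DESeq2 1.42.0, limma-voom, other scalings and filters, other pseudocounts, a GC correction, a replicate block and leaving out libraries. Both tests were checked on simulated data in which no library stood apart as resistant replicate 3 does, so the check does not cover the effect of such a library. Replicate libraries of a group differed by more than sampling noise. Depth was 3291500 to 12563945 counts.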

Additional observations from a re-analysis of the deposited data

How the results depend on the processing

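The statements on the miR-30 levels depend most on resistant replicate 3. Of 309 single values recomputed under the alternatives, 259 kept their direction and side of the threshold, 12 came past it and 38 changed sign. Of the 38, 0 were called in either setting. No value was called in the main setting, so falling back was not possible. With all 6 libraries, and without any 1 library other than resistant replicate 3, 0 arms were called in either direction under the alternatives run, and 0 hairpins were called for arm ratios in any setting. Without resistant replicate 3, 1 arm was called lower, also with DESeq2, RLE factors, limma-voom or the replicate block and without any 1 sensitive library (0 to 1 over the libraries left out), and 0 with library totals. Of all miRNAs in those 5 libraries, 121 of 822 were called lower with RLE factors and 157 of 822 with the replicate block. Called higher there were 1 arm with library totals (miR-30c-1-3p, 0.81, edgeR adjusted p = 0.036), 2 with the replicate block (miR-30b-3p, 0.59, 0.0261, and miR-30c-1-3p, 0.73, 0.00702) and 1 without sensitive replicate 3 (miR-30c-1-3p, 0.69, 0.0145); the range over the libraries left out was 0 to 1. Of all miRNAs, 179 of 822, 178 of 822 and 174 of 821 were called higher in these 3 settings, so the arms' counts lay near the background. Deviations of same-numbered libraries correlated at -0.07, 0.27 and 0.14, and 2 of 3 resistant libraries were most like the sensitive library of their own number. With so few libraries, these values cannot decide whether the replicate number pairs the libraries. With the number as a block, miR-30b-5p was at -1.70 (edgeR adjusted p = 0.206) and 0 arms and 0 hairpins were called.

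Values that changed sign were uncalled and reached at most 0.55 in size, for miR-30a-3p with library totals and without resistant replicate 3. The cause was not tested. The log2 fold change of miR-30a-3p was 0.14 with library totals and 0.027 at a minimum mean of 10 CPM, and that of miR-30e-3p was 0.079 and 0.026. miR-30e-3p was at 0.086 with the GC offset and at 0.091 with the replicate block and GC offset. With single libraries left out, from all 6 or from the 5 without resistant replicate 3, and nothing else altered, miR-30a-3p ran between -0.32 and 0.39, miR-30e-3p between -0.17 and 0.23, and miR-30b-3p between -0.025 and 1.46. Without resistant replicate 3, miR-30a-3p was at 0.21 with the GC offset, 0.26 with DESeq2, RLE factors and limma-voom, 0.55 with library totals and 0.33 with the replicate block. In the same settings miR-30e-3p was at 0.19 with the GC offset, 0.11 with DESeq2 and RLE factors, 0.13 with limma-voom, 0.40 with library totals and 0.25 with the replicate block. Without that library miR-30e-5p was at 0.056 with the GC offset. With library totals miR-30a-5p was at 0.20, miR-30c-5p at 0.022, miR-30d-5p at 0.044 and miR-30e-5p at 0.17. The arm ratio difference of miR-30a was 0.18 with the GC correction, with and without the replicate block.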
